A study of Mus musculus with 12 samples.

Results

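The Hox genes are a family of homeobox transcription factor genes, and their messenger RNA was followed here in cultured fibroblasts sorted from 2 fat depots of the mouse. Members were taken by name: every gene whose symbol in the platform annotation is Hoxa, Hoxb, Hoxc or Hoxd followed by a number, each read through 1 probe set, the one with the highest mean log2(signal + 16) over all arrays. This gave 31 genes of the 12393 genes measured, with 9 in the Hoxa cluster, 9 in Hoxb, 6 in Hoxc and 7 in Hoxd. RefSeq lists 39 Hox genes of the mouse. The other 8 had no probe set of their own and were not analysed as genes. Apart from the members, 3 probe sets that carry several Hox symbols are given below.

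Hox genes lie in 4 clusters, Hoxa on chromosome 6, Hoxb on chromosome 11, Hoxc on chromosome 15 and Hoxd on chromosome 2, and genes with the same paralogue number in different clusters descend from a common ancestor. In the embryo the low-numbered (anterior) genes are switched on first and towards the head, and the high-numbered (posterior) genes later and towards the tail, in the order in which they stand along the chromosome. Polycomb proteins keep the unused members silent and trithorax proteins keep the used ones active, and fibroblasts taken from different sites of the adult body keep a site-specific set of active Hox genes in culture. Fat depots are likewise known to differ in the Hox genes they express.

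The study asked which genes are characteristic of preadipocyte fibroblasts of inguinal fat, a subcutaneous depot, or of epididymal fat, a visceral depot of the abdomen. Cells came from the stromal vascular fraction, the non-adipocyte cells of fat, of male mice aged 6 to 8 weeks on a mixed FVB and C57BL/6 background. All 4 groups carry the same Zfp423-GFP transgene, a green fluorescent protein reporter for Zfp423, a zinc finger gene of preadipocytes. GFP-bearing (GFP+) and GFP-negative (GFP-) fibroblasts were sorted from the cultures, put back into DMEM/F12 medium with fetal bovine serum and collected while still dividing. The groups are the GFP+ and the GFP- cells of each depot, with 3 arrays apiece, and a mean below is given with its SD over those 3 (n = 3). No label ties the 3 to separate animals or cultures, so the spread that p-values rest on is that of 3 samples and may be technical. Because whole populations were measured, fewer cells that express a gene and less RNA per cell cannot be told apart.

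The arrays were close in overall level, with median signals between 347 and 371, and arrays of 1 group correlated at 0.993 to 0.995 (Pearson, across genes, which are not independent replicates). Signal is the deposited probe set intensity on a linear scale, and the number of arrays limits the precision. Zfp423 checked the sort, with a signal of 124 ± 22.9 in inguinal GFP+ against 57.4 ± 13.8 in inguinal GFP-, and 242 ± 35.1 in epididymal GFP+ against 29.4 ± 3.80 in epididymal GFP-. None of the 8 measured fibroblast markers was at background in any group. Single fibroblast markers differed between the groups all the same: Lum had means of 253 (GFP+) and 122 (GFP-) in inguinal and of 2396 and 1007 in epididymal cells, Dcn had 5419 and 2717 in inguinal and 15462 and 16871 in epididymal cells, and all 8 were called between depots in GFP- cells (5 higher and 3 lower in inguinal). The groups also differed in markers of other cells. The summed signal of 12 macrophage markers was 9704 to 11510 in inguinal GFP- and 1918 to 2879 in the other arrays, and that of 8 mesothelial markers was 27767 to 29104 in epididymal GFP-, 5884 to 6035 in epididymal GFP+ and 1564 to 2196 in inguinal cells. The mesothelium is the epithelium-like sheet that covers visceral fat. The sum of 7 mural (vessel wall) markers was 49868 to 50174 in epididymal GFP- and 52896 to 62390 in the other arrays. Acta2 was the brightest of them, with means of 31391 to 37676. Pdgfrb had a mean of 4042 in epididymal GFP- and of 11860 to 13349 in the other groups. Mcam went the other way, with 3494 in epididymal GFP- and 1019 to 2796 in the other groups. Myh11 had 7859 in epididymal GFP- and 13595 in epididymal GFP+, against 2647 and 5286 in inguinal GFP+ and GFP-. Rgs5 was at background in every group but inguinal GFP-. The sum of 7 endothelial markers was 4555 to 4820 in epididymal GFP- and 345 to 984 in the other arrays. Kdr carried most of that (a mean of 4469 in epididymal GFP-), while Pecam1, Cdh5, Tek, Tie1, Emcn and Cldn5 were at background there.

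Shown here are gene starts on either side of a change of direction between depots within the Hoxa cluster, together with that of Hoxd8. Each line holds the 250 bases before and 50 bases after a gene start listed by RefSeq (assembly GRCm38.p6), 5′ to 3′ on the gene's own strand, with CpG dinucleotides in capitals. Hoxa5 (chr6:52204538-52204837, minus strand) and Hoxa7 (chr6:52218524-52218823, minus strand) are the anterior side of that change, Hoxa9 (chr6:52227321-52227620, minus strand) is the posterior side, and Hoxd8 (chr2:74704365-74704664, plus strand) was the member that differed most between the inguinal GFP fractions.
Hoxa5: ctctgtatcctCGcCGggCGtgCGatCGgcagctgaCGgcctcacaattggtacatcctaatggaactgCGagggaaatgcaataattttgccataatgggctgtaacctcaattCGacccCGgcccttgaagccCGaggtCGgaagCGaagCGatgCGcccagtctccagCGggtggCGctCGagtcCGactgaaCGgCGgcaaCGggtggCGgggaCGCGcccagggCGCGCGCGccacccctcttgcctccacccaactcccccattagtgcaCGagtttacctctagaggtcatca
Hoxa7: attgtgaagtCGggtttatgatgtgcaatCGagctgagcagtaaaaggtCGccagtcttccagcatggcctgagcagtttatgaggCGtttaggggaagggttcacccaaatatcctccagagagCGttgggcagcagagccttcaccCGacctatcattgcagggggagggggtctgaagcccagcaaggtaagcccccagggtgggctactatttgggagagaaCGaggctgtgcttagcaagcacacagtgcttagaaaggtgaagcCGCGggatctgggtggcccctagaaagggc
Hoxa9: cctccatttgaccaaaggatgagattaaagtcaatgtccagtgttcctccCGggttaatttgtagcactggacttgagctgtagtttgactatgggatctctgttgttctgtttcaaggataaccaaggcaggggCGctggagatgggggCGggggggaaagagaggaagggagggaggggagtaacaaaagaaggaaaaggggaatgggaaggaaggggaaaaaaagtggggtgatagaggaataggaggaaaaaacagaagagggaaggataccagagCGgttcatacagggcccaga
Hoxd8: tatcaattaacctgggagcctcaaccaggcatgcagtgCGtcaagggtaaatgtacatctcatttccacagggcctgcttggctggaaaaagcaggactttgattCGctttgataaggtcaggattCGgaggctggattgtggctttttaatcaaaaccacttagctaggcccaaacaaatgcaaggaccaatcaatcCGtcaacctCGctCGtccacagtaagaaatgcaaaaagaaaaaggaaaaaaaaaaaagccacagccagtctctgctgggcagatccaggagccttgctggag
The Hoxa5 window holds 29 CpG dinucleotides, against 9 for Hoxa7, 6 for Hoxd8 and 4 for Hoxa9. Over the 20 windows listed for 18 of the 31 members the median was 14.5 CpG and 58.7% GC, against 7.0 CpG and 52.7% GC over all 32851 mouse windows of that length. The homeodomain core TAAT, searched on both strands, was in 16 of the 20 member windows and in 58.0% of all windows. The HOX-PBX motif TGATTNAT, which overlaps TAAT where its N is A, was in 2 member windows (Hoxa2 and Hoxd11) and in 3.22% of all windows, and the CDX motif TTTATNG, which overlaps TATAAA on the other strand where its N is A, was in 0 member windows and in 10.9% of all windows. The TATA box TATAAA was in 2 member windows (Hoxa10 and Hoxd13) and in 13.6% of all windows. These matches describe the letters in the windows only.

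To say which members stood above background, each group mean was set against 116 genes of families not normally used by fibroblasts (olfactory, vomeronasal and taste receptors, defensins, keratin-associated proteins and gamma-crystallins). The 95th percentile of those genes, called the silent-gene level here, was a signal of 63.0 in inguinal GFP+, 58.2 in inguinal GFP-, 88.3 in epididymal GFP+ and 77.1 in epididymal GFP-. Of the 31 Hox genes, 20, 21, 20 and 18 were above it in those groups, in the same order, against 69.7% to 71.9% of all genes. In all 4 groups 16 members were above it, in none 9, and in some groups 6.

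The clusters differed in how much of them was above background. All 6 measured Hoxc genes were above the silent-gene level in every group. In the Hoxa cluster 7 of 9 were above it in each group, although not the same 7: Hoxa4, an anterior gene of the neck region, was above it only in epididymal GFP+ (74.5, 108 and 109.9 on the 3 arrays), and Hoxa10, a posterior gene of the lumbar region and uterus, was below it only in that group (60.2, 59.1 and 74.2). In the Hoxb cluster 6 of 9 were above it in the first 3 groups and 3 in epididymal GFP-, where Hoxb3, Hoxb5 and Hoxb9 were at or below it. In the Hoxd cluster 7 genes had a probe set of their own, with Hoxd8 above the level in all 4 groups and Hoxd9 in both GFP- groups, while Hoxd1, Hoxd10, Hoxd11, Hoxd12 and Hoxd13 stayed at or below it everywhere. A further 2 probe sets carry the symbols Hoxd3 and Hoxd4 together and were given to no gene. One had means of 69.3 (GFP+) and 67.1 (GFP-) in inguinal and of 81.5 and 62.2 in epididymal cells, with no call. The other had 19.3 and 42.4 in inguinal and 25.7 and 82.9 in epididymal cells, above the silent-gene level only in epididymal GFP-. This probe set was lower in epididymal GFP+ than GFP- by -1.28 ± 0.33 (log2, SE, adjusted p = 0.00491 in a limma fit over every probe set). It was also lower in inguinal than epididymal GFP- cells, by -0.82 ± 0.33 (adjusted p = 0.0491). Both sizes rest on a group below the silent-gene level. The other members below it in every group were Hoxa13, Hoxb1, Hoxb7 and Hoxb13, and single arrays of these 9 genes read from 1.0 to 67.8. By paralogue number, 5 of 9 anterior members (1 to 4), 7 of 9 central members (5 to 8) and 4 of 13 posterior members (9 to 13) were above the level in all 4 groups.

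**Figure D1:**
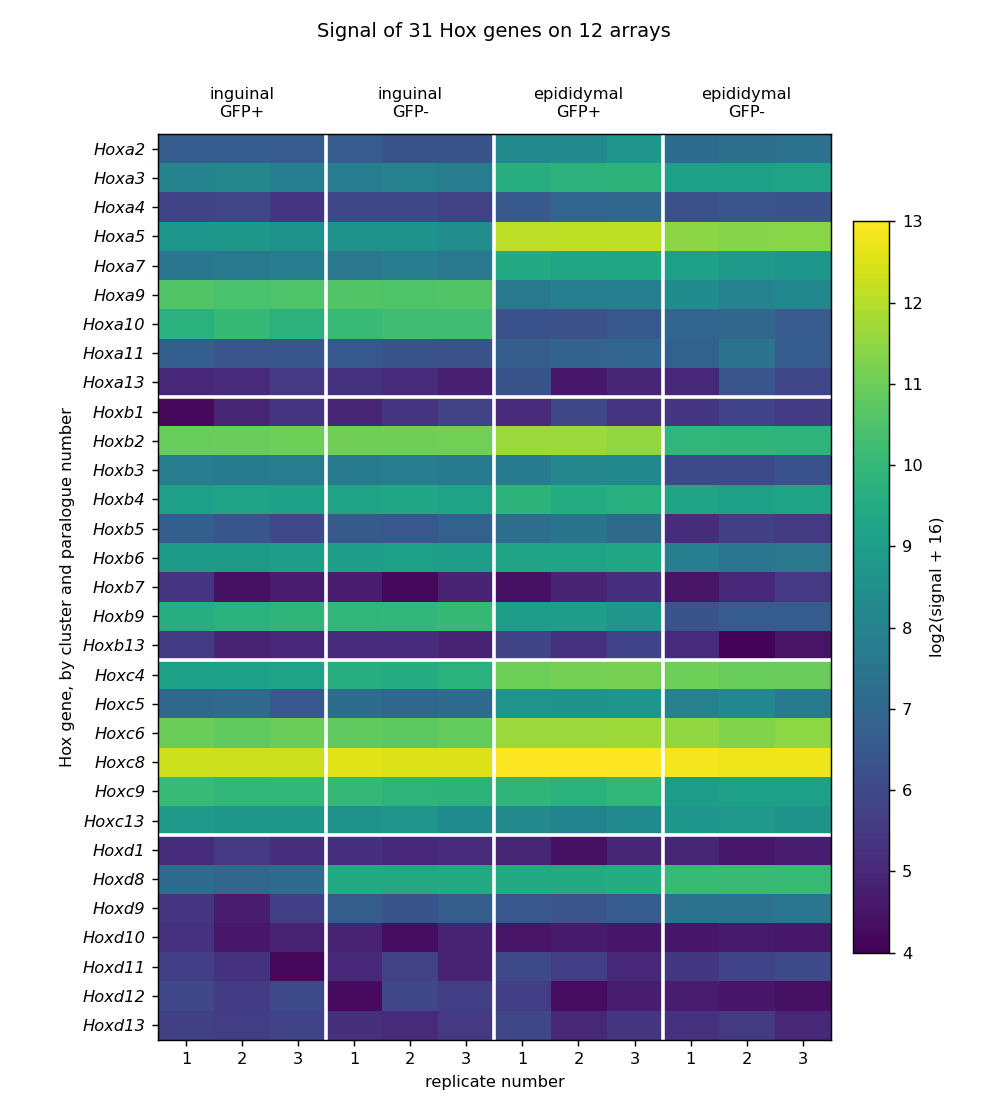
Signal of the 31 Hox genes on each of the 12 arrays, as log2(signal + 16) on a colour scale, with genes in rows by cluster and paralogue number and arrays in columns by group and replicate number. The 3 arrays of a group look alike in most rows, and the Hoxa5, Hoxa9 and Hoxa10 rows change between inguinal and epididymal columns. Colours compare arrays within a row and not genes with each other.

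The first question is how the depots differ, asked once in GFP+ and once in GFP- cells with limma on log2(signal + 16) and Benjamini-Hochberg adjustment over all 12393 genes (a call is an adjusted p under 0.05). In GFP+ cells 4 of the 31 Hox genes were called higher in inguinal cells, against 23.6% of all genes, 15 were called lower, against 27.2%, and 12 were not called. In GFP- cells 8 were called higher, against 27.4% of all genes, 11 were called lower, against 26.3%, and 12 were not called. The median inguinal minus epididymal difference was -0.51 over the Hox genes and -0.04 over all genes in GFP+ cells, and -0.22 and -0.02 in GFP- cells, on the log2 scale. The median size of the difference without its sign was 0.73 for Hox genes and 0.25 for all genes in GFP+ cells, and 0.72 and 0.28 in GFP- cells. The 2 comparisons use different arrays, and 16 genes were called in both, which is 84.2% of the 19 called in each. Over all genes, 74.0% of those called in GFP+ and 70.0% of those called in GFP- cells were called in both. Of those, 13 had the same direction and 3 the opposite one (Hoxb2, Hoxb5 and Hoxb6).

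Within the Hoxa cluster the direction turned over between paralogues 7 and 9 in both comparisons. The measured genes from Hoxa2 to Hoxa7 were higher in epididymal cells (5 of 5 called in GFP+ and 4 of 5 in GFP-, where Hoxa4 was not called), and Hoxa9 and Hoxa10 were higher in inguinal cells. Hoxa11 was again on the epididymal side, at -0.31 in GFP+ (not called, adjusted p = 0.21) and -0.62 in GFP- cells. The latter was called, but the call was lost under some settings given below.

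Hoxa5, which patterns the lung and the skeleton at the base of the neck, had the largest difference among the genes higher in epididymal cells. Its signal was 4426, 4499 and 4457 in epididymal GFP+ and 2756, 2635 and 2711 in epididymal GFP-, against 407, 418 and 366 in inguinal GFP+ and 365, 381 and 325 in inguinal GFP-. Every epididymal array was far above every inguinal one. The inguinal minus epididymal difference was -3.44 ± 0.06 (log2, SE, adjusted p = 1.39e-15) in GFP+ cells, which is 10.9-fold on the log2(signal + 16) scale, and -2.87 ± 0.06 (adjusted p = 1.39e-15) in GFP- cells.

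Hoxa2, needed for the second pharyngeal arch and hindbrain, read 293, 304 and 395 in epididymal GFP+ and 82.9, 82.8 and 79.7 in inguinal GFP+. In GFP- cells it read 125, 145 and 147 for epididymal and 78.8, 63.5 and 63.3 for inguinal fat. The epididymal arrays were the higher ones in both fractions without overlap, with differences of -1.81 ± 0.14 (adjusted p = 4.08e-08) and -0.88 ± 0.14 (adjusted p = 7.74e-05). Hoxa3, which acts in the thymus and parathyroid, read 768, 856 and 890.1 in epididymal GFP+, against 245, 264 and 217 in inguinal GFP+, and 538, 545 and 577 in epididymal GFP-, against 203, 232 and 202 in inguinal GFP-. Its differences were -1.73 ± 0.09 (adjusted p = 3.31e-10) and -1.32 ± 0.09 (adjusted p = 3.54e-09), again with no overlap. In a limma fit over every probe set, a second Hoxa3 probe set had the same direction with smaller differences. These were -0.84 (adjusted p = 6.01e-05) in GFP+ and -0.86 (adjusted p = 3.44e-05) in GFP- cells. Hoxa7, a gene of the upper trunk, read 708, 613 and 659 against 168, 183 and 212 in GFP+ cells and 521, 441 and 406 against 176, 206 and 178 in GFP- cells. The epididymal arrays were again all higher, by 3.33-fold (log2 difference -1.74 ± 0.11, adjusted p = 3.62e-09) and 2.32-fold (-1.22 ± 0.11, adjusted p = 1.25e-07).

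Hoxa4 was called lower in inguinal GFP+ (-1.10 ± 0.19, adjusted p = 0.000172). The 3 inguinal GFP+ arrays read 41.2, 43.2 and 26.2, below the silent-gene level, so the epididymal signal was at least 1.42-fold higher, which takes that level in place of the dim group. In GFP- cells, where both groups were below the level, the difference of -0.44 was not called (adjusted p = 0.0682).

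Hoxa9, a regulator of blood progenitors and of the trunk skeleton, went the other way. It read 1474, 1356 and 1442 in inguinal GFP+ and 1475, 1462 and 1502 in inguinal GFP-, against 184, 214 and 219.6 in epididymal GFP+ and 314, 240.5 and 280.2 in epididymal GFP-. All 6 inguinal arrays were above all 6 epididymal ones, by 2.70 ± 0.09 (log2, adjusted p = 1.01e-12) in GFP+ and 2.35 ± 0.09 (adjusted p = 1.39e-12) in GFP- cells. A second, dimmer Hoxa9 probe set had the same direction with smaller differences, 0.37 (adjusted p = 0.0504) in GFP+ and 1.03 in GFP- cells.

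Hoxa10 read 835, 1039.9 and 855 in inguinal GFP+ and 1083, 1189 and 1191 in inguinal GFP-. In epididymal cells it read 60.2, 59.1 and 74.2 with GFP and 107, 109 and 79.1 without. The inguinal arrays were all higher, with differences of 3.52 ± 0.12 (adjusted p = 2.63e-12) in GFP+ and 3.37 ± 0.12 (adjusted p = 1.16e-12) in GFP- cells. As epididymal GFP+ was below the silent-gene level, the first is a difference of at least 8.84-fold. Hoxa11, which builds the forearm and uterus, was called lower in inguinal GFP- only (-0.62 ± 0.20, adjusted p = 0.0144), and this call was lost without epididymal GFP- replicate 2, the array that read 156 where the others read 96.3 and 83.4 (adjusted p = 0.0992), without inguinal GFP- replicate 3 (adjusted p = 0.0503), and with quantile normalization (-0.46, adjusted p = 0.0657). Hoxa13, a gene of digits and hindgut, was at background.

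**Figure D2:**
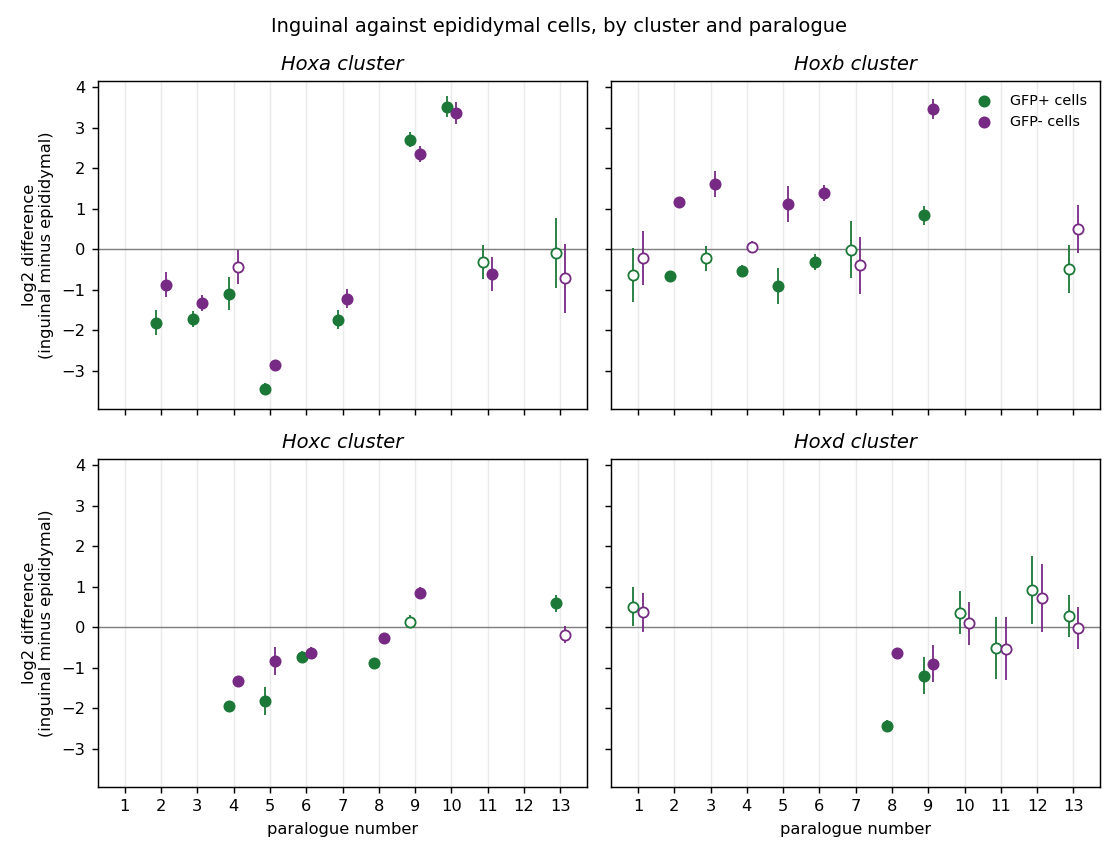
Inguinal minus epididymal log2 difference of each Hox gene by paralogue number, in 1 panel per cluster, with bars for the 95% confidence interval. Green points are GFP+ cells and purple points GFP- cells, filled where the adjusted p was under 0.05 and open otherwise. In the Hoxa panel the points pass from below 0 at paralogues 2 to 7 to above 0 at paralogues 9 and 10. They are below 0 again at paralogues 11 and 13. In the Hoxb panel the purple points stand above the green ones at paralogues 2 to 6 and 9.

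In the Hoxc cluster the lower-numbered genes were likewise higher in epididymal cells. Hoxc4, Hoxc5, Hoxc6 and Hoxc8 were higher in epididymal cells in both comparisons, 4 of the 6 members measured. Hoxc4, whose paralogue group patterns the neck, read 2055, 2198 and 2251 in epididymal GFP+ and 2075, 1913 and 1948 in epididymal GFP-, against 540.5, 529 and 574 in inguinal GFP+ and 764, 738 and 841 in inguinal GFP-. The epididymal arrays did not overlap the inguinal ones, and the differences were -1.95 ± 0.06 (adjusted p = 4.03e-13) in GFP+ and -1.32 ± 0.06 (adjusted p = 1.1e-11) in GFP- cells. Hoxc5 read 402, 390.5 and 396 in epididymal and 114, 122 and 74 in inguinal GFP+ cells, a difference of -1.81 ± 0.16 (adjusted p = 1.18e-07). In GFP- cells it read 234, 275 and 191 for epididymal and 128, 115 and 126 for inguinal fat (-0.83 ± 0.16, adjusted p = 0.000299). Hoxc6 differed by -0.73 ± 0.07 (adjusted p = 1.51e-07) and -0.63 ± 0.07 (adjusted p = 4.97e-07), less than 1 on the log2 scale in each.

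Hoxc8, which sets thoracic identity in the skeleton and is known as a repressor of brown fat formation, read 9038, 9279 and 9267 in epididymal GFP+ and 5053, 5031 and 4949 in inguinal GFP+. The GFP- arrays lay between these, at 7292, 6961 and 7024 for epididymal and 6035, 5855 and 5830.1 for inguinal fat. No groups overlapped, and the differences were -0.87 ± 0.03 (adjusted p = 5.16e-13) and -0.26 ± 0.03 (adjusted p = 3.86e-07). The posterior genes did not follow. Hoxc9, which defines thoracic motor neurons, was not called in GFP+ cells (0.14, adjusted p = 0.113) and was higher in inguinal GFP- (0.84 ± 0.07, adjusted p = 4.59e-08). Hoxc13, a hair and nail gene, was higher in inguinal GFP+ (0.59 ± 0.10, adjusted p = 0.00012) and not called in GFP- cells (-0.18, adjusted p = 0.145).

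In the Hoxd cluster Hoxd8 and Hoxd9 were lower in inguinal cells in both comparisons, and the other 5 members, all at background, were not called. Hoxd8, a central gene of the trunk, read 126, 109 and 124 in inguinal GFP+ and 708, 706 and 749.6 in epididymal GFP+. In GFP- cells it read 690.1, 683 and 709 for inguinal and 1094, 1106 and 1085 for epididymal fat. The inguinal GFP+ arrays were the lowest of the 12, and the differences were -2.44 ± 0.07 (adjusted p = 2.14e-13) in GFP+ and -0.65 ± 0.07 (adjusted p = 6.44e-07) in GFP- cells. Hoxd9, which acts in the lower spine and limb, differed by -1.20 ± 0.22 (adjusted p = 0.000229) and -0.90 ± 0.22 (adjusted p = 0.00218), and in GFP+ cells both groups were below the silent-gene level.

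The Hoxb cluster had different calls in the 2 GFP fractions. In GFP+ cells 4 of its 9 members were lower in inguinal cells (Hoxb2, Hoxb4, Hoxb5 and Hoxb6) and Hoxb9 was higher. In GFP- cells 5 were higher in inguinal cells (Hoxb2, Hoxb3, Hoxb5, Hoxb6 and Hoxb9) and none was lower. For Hoxb2, Hoxb3, Hoxb5, Hoxb6 and Hoxb9 epididymal GFP- was the lowest of the 4 groups, and for Hoxb4 inguinal GFP+ was.

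Hoxb2, a hindbrain gene of the facial nerve region, read 954, 934 and 918 in epididymal GFP-, against 3167, 3180.5 and 2942 in epididymal GFP+. The inguinal groups were close to each other at 1911, 1945 and 2054 with GFP and 2079.9, 2118 and 2129.8 without. Epididymal GFP+ was thus the highest group and epididymal GFP- the lowest. The inguinal minus epididymal difference was -0.65 ± 0.04 (adjusted p = 3.14e-09) in GFP+ and 1.16 ± 0.04 (adjusted p = 8.26e-13) in GFP- cells. Hoxb6, expressed in lateral plate mesoderm, had the same order, with 601, 578 and 616 in epididymal GFP+, 222, 170.3 and 176 in epididymal GFP-, 466, 468 and 495 in inguinal GFP+ and 509, 539 and 507 in inguinal GFP-. Its differences were -0.32 ± 0.09 (adjusted p = 0.00773) and 1.39 ± 0.09 (adjusted p = 1.61e-09). Hoxb5, which helps place the forelimb, read 20.4, 36.3 and 29.7 in epididymal GFP- and 131, 166 and 122 in epididymal GFP+, with 86.2, 69.2 and 48 in inguinal GFP+ and 76.6, 70.2 and 94.1 in inguinal GFP-. It differed by -0.91 ± 0.21 (adjusted p = 0.00169) in GFP+ and 1.11 ± 0.21 (adjusted p = 0.000251) in GFP- cells, the latter against a group at background, so at least 1.03-fold.

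Hoxb9, a thoracic gene that also acts in the mammary gland, was higher in inguinal cells in both fractions. It read 767, 846 and 927 in inguinal GFP+, against 505, 504 and 393 in epididymal GFP+ (0.84 ± 0.11, adjusted p = 1.26e-05), and 959, 985 and 1040.0 in inguinal GFP-, against 63.1, 81.8 and 83.5 in epididymal GFP- (3.46 ± 0.11, adjusted p = 2.4e-13). No array of 1 depot reached the other, and the GFP- difference was at least 10.9-fold, as epididymal GFP- was at the silent-gene level. Hoxb3, which patterns the hindbrain and pharyngeal arches, was not called in GFP+ cells (-0.23, adjusted p = 0.227) and was higher in inguinal GFP- (1.61 ± 0.15, adjusted p = 1.12e-07), at least 2.28-fold. Hoxb4, a regulator of blood stem cells, was lower in inguinal GFP+ (-0.54 ± 0.07, adjusted p = 1.05e-05) and not called in GFP- cells (0.06, adjusted p = 0.511), where its second probe set was lower in inguinal cells by -0.27 (adjusted p = 0.0131). Hoxb1, Hoxb7 and Hoxb13 were at background, Hoxb7 by its own probe set only.

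The mesothelial markers moved with the depot and with GFP at once: 6 of 8 were lower in inguinal GFP+ than in epididymal GFP+ and 7 of 8 were lower in inguinal GFP- than in epididymal GFP-. The others were higher in inguinal cells: Krt7 in GFP+ (a mean of 564 against 56.1) and Krt19 in both (1292 against 191 in GFP+ and 1186 against 216 in GFP-). Upk3b, Msln, Krt8 and Krt18 were at or below the silent-gene level in both inguinal groups, and none of the 8 was in epididymal GFP-. The macrophage markers were higher in inguinal GFP- than in epididymal GFP- for 10 of 12 and lower for 1. Of the 7 mural markers 1 was higher and 5 were lower in inguinal GFP+ than epididymal GFP+, and 4 were higher and 2 lower in GFP- cells. Of the 7 endothelial markers 0 were higher and 3 lower in GFP+ cells, and 1 was higher and 1 lower in GFP- cells. The part of any of these cell types in the depot differences of Hox genes was not tested.

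The second question is how GFP+ differ from GFP- cells of the same depot. In epididymal fat 15 Hox genes were called higher in GFP+, against 21.5% of all genes, 5 were called lower, against 20.3%, and 11 were not called. The median difference was 0.35 over the Hox genes and 0.01 over all genes on the log2 scale, and the median size was 0.50 and 0.20. By cluster, 7 of 9 Hoxb genes were higher and none lower, 4 of 9 Hoxa genes were higher and 2 lower, 4 of 6 Hoxc genes were higher and 1 lower, and 2 of 7 Hoxd genes were lower and none higher. By paralogue number, 5 of 9 anterior and 7 of 9 central members were higher, with 0 and 1 lower, and 3 of 13 posterior members were higher and 4 lower.

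The Hoxb differences were the largest of these. Hoxb9 was higher in epididymal GFP+ by 2.39 ± 0.11 (log2, adjusted p = 4.22e-11), with the array values given above, and the fold was at least 5.16. Hoxb3 read 186, 268 and 278 in GFP+ and 47, 52.9 and 61.9 in GFP- cells, a difference of 1.88 ± 0.15 (adjusted p = 2.49e-08) and at least 2.76-fold. Hoxb5 differed by 1.80 ± 0.21 (adjusted p = 2.33e-06), at least 1.66-fold. In none of these 3 genes did the GFP+ and GFP- arrays overlap, and in each the GFP- mean was at or below the silent-gene level. Their neighbours Hoxb2 and Hoxb6, above background on every array, changed too. Hoxb2 was 3.27-fold higher (1.71 ± 0.04, adjusted p = 1.36e-14) and Hoxb6 3.01-fold higher (1.59 ± 0.09, adjusted p = 4.39e-10). Hoxb4, which lies between Hoxb3 and Hoxb5, rose less, from 594, 544 and 582 in GFP- to 891, 748 and 799 in GFP+ cells (0.49 ± 0.07, adjusted p = 2.94e-05), and its second probe set gave 0.19 (adjusted p = 0.103). Hoxb13, a prostate and tail gene, was called higher (1.07 ± 0.28, adjusted p = 0.00541), but both groups were below the silent-gene level.

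Of the other clusters Hoxa2 rose most in epididymal GFP+, by 1.15 ± 0.14 (adjusted p = 6.12e-06), from 125, 145 and 147 to 293, 304 and 395. Hoxa5 was 1.65-fold higher (0.72 ± 0.06, adjusted p = 5.46e-08), Hoxa3 1.5-fold (0.58 ± 0.09, adjusted p = 6.78e-05) and Hoxa7 1.44-fold (0.52 ± 0.11, adjusted p = 0.0012). Hoxa4 had a difference of 0.49 that was not called (adjusted p = 0.0507), while its second probe set gave 0.69 with a call (adjusted p = 0.0171). In the same cluster Hoxa9 (-0.40 ± 0.09, adjusted p = 0.00136) and Hoxa10 (-0.50 ± 0.12, adjusted p = 0.00362) were lower in GFP+, the Hoxa10 fall being at least 1.09-fold. By the probe sets used, the direction thus turned over between paralogues 7 and 9 here too, in arrays that this comparison shares with the depot comparisons. The only called Hoxa genes on the posterior side were Hoxa9 and Hoxa10. The Hoxa10 mean was below the silent-gene level in GFP+, and its call was lost with only the compared groups fitted (adjusted p = 0.0511). The Hoxa9 call belongs to the brighter probe set: the dimmer one was higher in GFP+ by 0.51 (adjusted p = 0.0115), and the mean of both gave 0.05 (adjusted p = 0.698). Hoxa3 was also split, since its second probe set gave -0.17 (adjusted p = 0.338).

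In the Hoxc cluster Hoxc9 read 941, 835 and 989 in epididymal GFP+ and 484, 533 and 526 in GFP- cells (0.82 ± 0.07, adjusted p = 9.1e-08). Hoxc5 was 1.67-fold higher (0.74 ± 0.16, adjusted p = 0.0012), Hoxc8 1.3-fold (0.37 ± 0.03, adjusted p = 8.01e-09) and Hoxc6 1.16-fold (0.22 ± 0.07, adjusted p = 0.0142). The Hoxc6 call was lost without epididymal GFP- replicate 2 (adjusted p = 0.0865), with the mean of all its probe sets (adjusted p = 0.0723) and without a variance trend (adjusted p = 0.0544). Hoxc13 went down, from 412, 426 and 389.7 in GFP- to 285, 251 and 309 in GFP+ cells (-0.52 ± 0.10, adjusted p = 0.000433), and the arrays did not overlap. Hoxc4 was not called (0.13, adjusted p = 0.0871). In the Hoxd cluster Hoxd8 was lower in GFP+ (-0.59 ± 0.07, adjusted p = 2.55e-06), as was Hoxd9 (-0.96 ± 0.22, adjusted p = 0.00166), which read 70.3, 67.7 and 82.1 in GFP+ and 152, 151 and 171 in GFP- cells, a fall of at least 1.67-fold.

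Beside these differences, 7 of 8 mesothelial markers were lower in epididymal GFP+ and none was higher, with a median difference of -3.06 on the log2 scale, and 6 of 12 macrophage markers were lower and 1 higher, Csf1r, with a mean of 1065 in GFP+ and 504 in GFP-. Of the 7 mural markers 4 were higher and 2 lower, and of the 7 endothelial markers 2 were higher and 1 lower. Krt7 was the only mesothelial marker at or below the silent-gene level in epididymal GFP+. Their part in the Hox differences was not tested.

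In inguinal fat fewer Hox genes were called between the GFP fractions than in epididymal fat, and the same was true of all genes. None of the 31 was called higher in GFP+ by limma, against 5.26% of all genes, 4 were called lower, against 7.29%, and 27 were not called. At an unadjusted p under 0.05, 2 were higher (Hoxa5 and Hoxc13) and 6 lower. The share of all genes at that looser threshold was not counted, so these counts cannot be set against all genes. The median difference was 0.00 over the Hox genes and -0.01 over all genes, and the median size was 0.18 and 0.10. The 4 lower genes were Hoxd8, Hoxd9, Hoxc4 and Hoxc8, and no member of the Hoxa or Hoxb clusters was among them. Without inguinal GFP+ replicate 3, Hoxa5 was called higher.

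Hoxd8 fell furthest, from 690.1, 683 and 709 in inguinal GFP- to 126, 109 and 124 in GFP+ cells. The groups were far apart, and the difference was -2.39 ± 0.07 (adjusted p = 4.62e-12) or 5.24-fold. Hoxd9 read 85.3, 63.6 and 85 in GFP- and 27.4, 10.5 and 34.9 in GFP+ cells (-1.27 ± 0.22, adjusted p = 0.000749), and the GFP+ group was at background, so the fold was at least 1.18. Hoxc4 fell by less, from 764, 738 and 841 to 540.5, 529 and 574 (-0.50 ± 0.06, adjusted p = 1.88e-05). Hoxc8 read 6035, 5855 and 5830.1 in GFP- and 5053, 5031 and 4949 in GFP+ cells, which is a small difference with little spread (-0.24 ± 0.03, adjusted p = 1.38e-05). In all 4 genes the GFP+ arrays were below every GFP- array. That does not set them apart, since it also held for the uncalled Hoxa10, Hoxb2, Hoxb4, Hoxb6 and Hoxb9. For the uncalled Hoxa2, Hoxc13 and Hoxd13 every GFP+ array was above every GFP- array. The share of all genes without overlap was not counted.

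Of the 4 genes called in inguinal fat, 3 were also called in epididymal fat, which is 75.0% of the inguinal and 15% of the epididymal calls, against 72.2% and 21.7% over all genes, and these 2 comparisons share no array. Hoxd8 and Hoxd9 were lower in GFP+ in both, and Hoxc8 was lower in inguinal and higher in epididymal GFP+. In inguinal fat 10 of 12 macrophage markers were lower in GFP+, with a median difference of -3.52, and C1qa, C1qb, C1qc, Ptprc, Tyrobp, Fcer1g and Mpeg1 were at or below the silent-gene level in GFP+ but not in GFP-. Of the 7 mural markers 5 were lower in inguinal GFP+ and 0 higher. The part of this in the Hox differences was not tested.

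**Figure D3:**
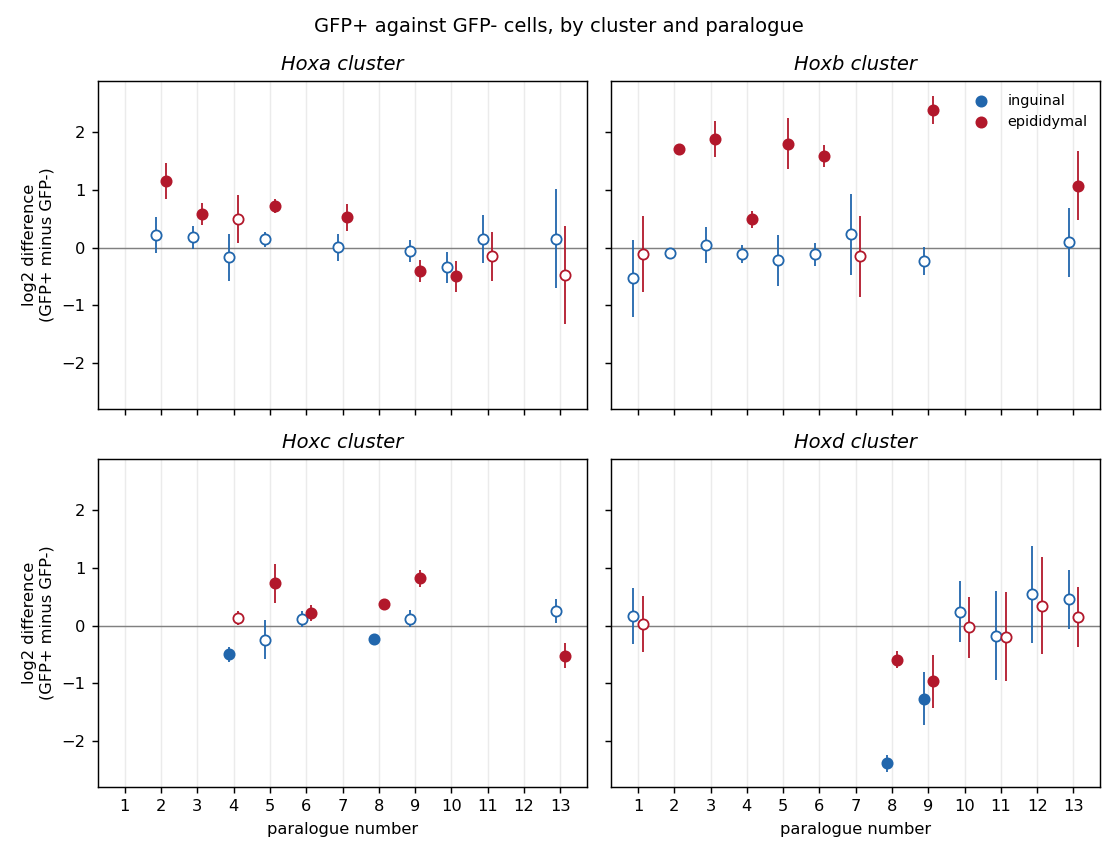
GFP+ minus GFP- log2 difference of each Hox gene by paralogue number, in 1 panel per cluster, with bars for the 95% confidence interval. Blue points are inguinal and red points epididymal cells, filled where the adjusted p was under 0.05 and open otherwise. In the Hoxb panel the red points stand between 0.49 and 2.39 at paralogues 2 to 6 and 9 while the blue points lie near 0, and in the Hoxd panel both colours lie below 0 at paralogues 8 and 9.

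Whether the GFP difference itself differed between depots was tested as an interaction, the inguinal GFP+ minus GFP- difference less the epididymal one. It was called above 0 for 2 Hox genes, against 16.1% of all genes, called below 0 for 15, against 18.7%, and not called for 14. Hoxb9 had -2.62 ± 0.16 (log2, adjusted p = 1.9e-09), Hoxb5 -2.02 ± 0.29 (adjusted p = 4.33e-05), Hoxb3 -1.83 ± 0.21 (adjusted p = 3.26e-06), Hoxb2 -1.81 ± 0.06 (adjusted p = 1.16e-12) and Hoxb6 -1.71 ± 0.13 (adjusted p = 2.38e-08). In these 5 the inguinal difference was not called and the epididymal one was. For Hoxb9, Hoxb5 and Hoxb3 the epididymal GFP- mean was at or below the silent-gene level, so the sizes of their interactions, and their order against those of Hoxb2 and Hoxb6, rest on background signal. Hoxd8 had -1.80 ± 0.10 (adjusted p = 4.67e-10), and here both depots had a call in the same direction with the larger fall in inguinal fat. Hoxd9 fell in both depots with no called difference between them (-0.30, 95% interval -0.95 to 0.35, adjusted p = 0.513).

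By cluster, the interaction was called below 0 for 6 of 9 Hoxb, 4 of 9 Hoxa, 4 of 6 Hoxc and 1 of 7 Hoxd genes. Hoxc8 had -0.61 ± 0.04 (adjusted p = 2.5e-09) and Hoxc4 -0.63 ± 0.08 (adjusted p = 1.47e-05). The 2 genes called above 0 were Hoxc13 (0.77 ± 0.14, adjusted p = 0.000381) and Hoxa9 (0.35 ± 0.12, adjusted p = 0.0413). The Hoxa9 call was lost with the mean of its 2 probe sets, which gave -0.16 (adjusted p = 0.384). Its dimmer probe set alone was called in the opposite direction, at -0.66 (adjusted p = 0.0236 in a limma fit over every probe set). It was also lost, with adjusted p between 0.0675 and 0.104, without any 1 of 8 arrays, which were epididymal GFP+ replicate 1, epididymal GFP- replicates 1 and 3, inguinal GFP+ replicates 1 and 3 and inguinal GFP- replicates 1, 2 and 3. The smaller calls of Hoxa3 (-0.41, adjusted p = 0.0231) and Hoxa7 (-0.52, adjusted p = 0.018) were lost without single arrays too: Hoxa3 without epididymal GFP+ replicate 2 or 3, epididymal GFP- replicate 1, inguinal GFP+ replicate 3 or inguinal GFP- replicate 2 (adjusted p up to 0.0637), and Hoxa7 without epididymal GFP- replicate 3 or inguinal GFP- replicate 2 (adjusted p up to 0.0535). The Hoxa3 call was also lost with the mean of all its probe sets (-0.19, adjusted p = 0.218), and its second probe set alone gave 0.02 (adjusted p = 0.957). Marker genes of other cells moved in the interaction as well. Of the macrophage markers 11 of 12 were called below 0 (median of the 12 -3.08). Of the mural markers 6 of 7 were called below 0 and 1 above (median -1.17), and 7 of 8 mesothelial markers were called above 0 (median 2.74). Their part in the Hox interactions was not tested.

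**Figure D4:**
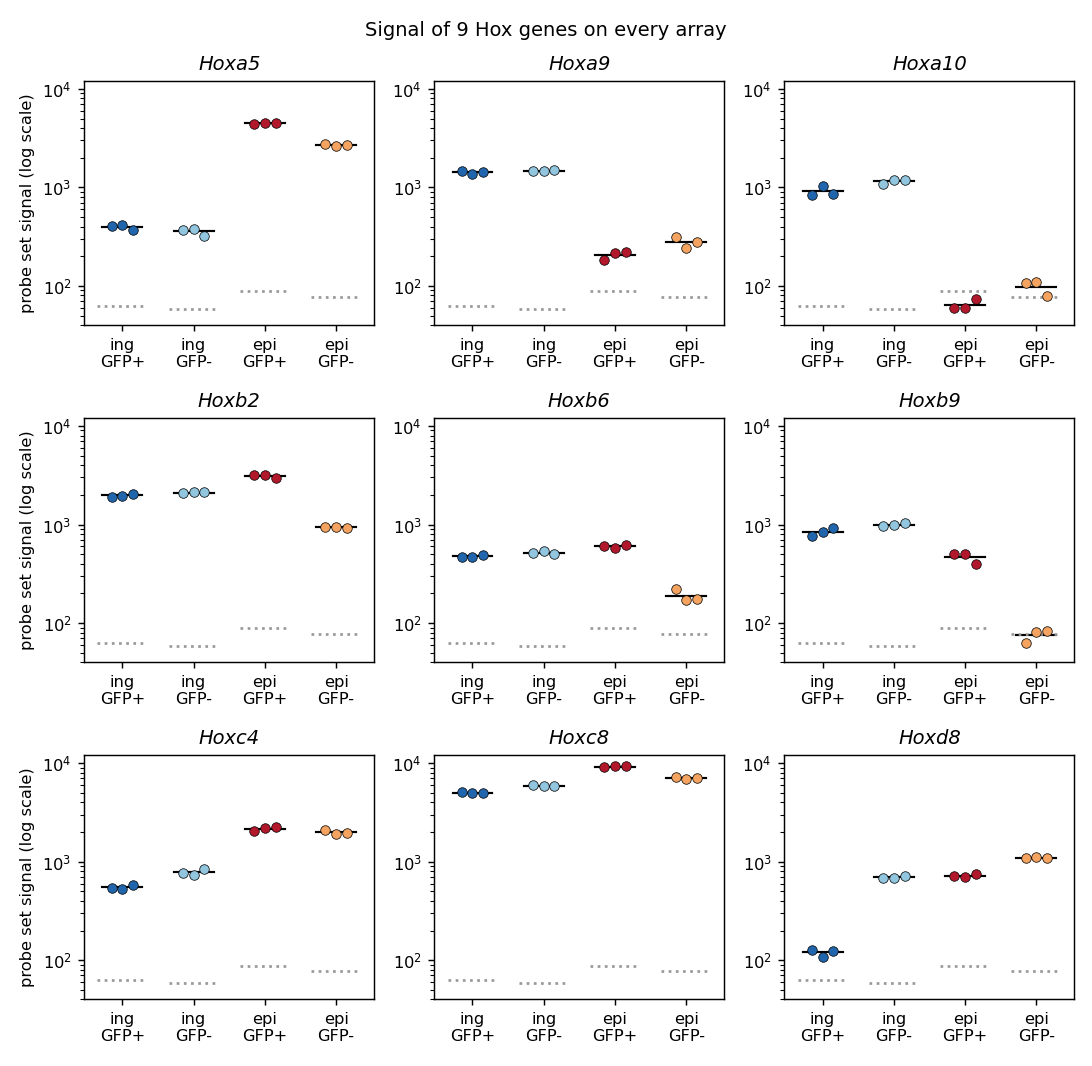
Probe set signal of 9 Hox genes on every array, on a log scale, with 1 point per array, a line at the group mean (n = 3) and a dotted line at the silent-gene level of each group. Hoxa5 is high and Hoxa9 and Hoxa10 are low in epididymal cells, Hoxb2, Hoxb6 and Hoxb9 are lowest in epididymal GFP-, and Hoxd8 is lowest in inguinal GFP+. Panels should be read group against group and not gene against gene.

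One more probe set bears on the Hoxb result. Its annotation holds 2 neighbouring Hoxb symbols, Hoxb7 and Hoxb8, so it was given to no gene. It read 1125, 964 and 1136 in inguinal GFP+, 1019, 1127 and 1074 in inguinal GFP-, 819, 880 and 784 in epididymal GFP+ and 234, 228 and 251 in epididymal GFP-. As with Hoxb9, epididymal GFP- was the low group. In a fit over every probe set it was higher in epididymal GFP+ than GFP- by 1.73 ± 0.07 (log2, SE, adjusted p = 2.52e-11) and did not differ detectably in inguinal fat (0.00, adjusted p = 0.998). Hoxb7, read through its own probe set, was at background in all groups, at 13.6 ± 10.8, 8.65 ± 5.55, 13.4 ± 8.09 and 17.2 ± 11.4. The shared probe set was above the silent-gene level in every group. Which of its 2 genes gave that signal was not tested, so Hoxb7 is not shown to be silent.

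The uncalled members with differences of at least 0.5 on the log2 scale were at background in every group, apart from Hoxa4 in the interaction. Hoxd12, a digit gene, was 0.92 (adjusted p = 0.0651) and 0.72 (adjusted p = 0.142) between depots in GFP+ and GFP- cells, with single arrays from 3.0 to 47.8. Hoxb1, which specifies the facial motor nucleus, was -0.64 in GFP+ cells (adjusted p = 0.1), Hoxd11, a forearm gene, -0.51 (adjusted p = 0.267), and Hoxd1, a gene of sensory neurons, 0.51 (adjusted p = 0.0762). Between depots in GFP- cells Hoxd11 was -0.53 (adjusted p = 0.243). Between the inguinal GFP fractions Hoxb1 was -0.54 (adjusted p = 0.331) and Hoxd12 0.55 (adjusted p = 0.456). The interaction of Hoxb13 was -0.98 (adjusted p = 0.0699), that of Hoxa4 -0.66 (adjusted p = 0.0733) and that of Hoxa13 0.63 (adjusted p = 0.456). Hoxa13 was -0.72 between depots in GFP- cells (adjusted p = 0.152), where its 3 epididymal arrays read 15.8, 67.8 and 44.7. Hoxd10, which acts in lumbar motor neurons, and Hoxd13, which acts in digits, stayed at means of 7.47 to 14.8 and 22.8 to 36.8. None of these differences passed the adjusted threshold.

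Genes that work with or on the Hox genes were counted in the same fits. Their counts are to be read against all genes, of which 23.6% were higher and 27.2% lower in inguinal than epididymal GFP+ cells, 27.4% and 26.3% in GFP- cells, 21.5% and 20.3% in epididymal GFP+ than GFP-, and 5.26% and 7.29% in inguinal GFP+ than GFP-. The TALE proteins (Pbx, Meis and Pknox) bind DNA together with Hox proteins. Of the 8 measured, 1 was higher and 3 were lower in inguinal than epididymal GFP+ cells, and 1 was higher and 2 were lower in GFP- cells. Meis1 had mean signals of 1155 in inguinal GFP+, 904 in inguinal GFP-, 2628 in epididymal GFP+ and 3196 in epididymal GFP-, and differed between depots by -1.18 ± 0.04 (adjusted p = 1.33e-12) and -1.80 ± 0.04 (adjusted p = 1.85e-15). Meis2 was lower in epididymal GFP+ than GFP- by -1.33 ± 0.05 (adjusted p = 1.57e-12), unlike the Hoxb genes, and higher in inguinal GFP+ by 0.42 ± 0.05 (adjusted p = 1.39e-05).

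Of 22 Polycomb genes, 6 were higher and 7 lower in epididymal GFP+ than GFP-, 5 higher and 4 lower between depots in GFP+ cells, and 5 higher and 7 lower in GFP- cells. In inguinal GFP+ 0 were higher and 2 lower than in GFP-, Suz12 and Phc2, and both calls were lost without inguinal GFP+ replicate 3 (adjusted p = 0.0691 and 0.0923), without inguinal GFP- replicate 3 (0.063 and 0.0574), without a variance trend (0.0538 and 0.0741), with only the compared groups fitted (0.0552 and 0.0514) and with the mean of all probe sets (0.324 and 0.052). The Phc2 call was also lost without inguinal GFP+ replicate 1 (adjusted p = 0.109), without inguinal GFP- replicate 1 (0.0878) or 2 (0.0608), and with median centring (0.0635). Pcgf1, a subunit of a Polycomb repressive complex, was higher in inguinal cells by 0.74 ± 0.13 (adjusted p = 0.00017) in GFP+ and 0.85 ± 0.13 (adjusted p = 3.22e-05) in GFP- cells. Of 9 trithorax and demethylase genes, 4 were lower and 2 higher in inguinal GFP+ than epididymal GFP+, among them the methyltransferase Kmt2d (-1.05 ± 0.14, adjusted p = 1.18e-05), and none was called between the inguinal GFP fractions.

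Among 11 upstream factors, 5 were higher and 1 lower in epididymal GFP+ than GFP-, against 21.5% and 20.3% of all genes. Rarb, a retinoic acid receptor, read 972 in epididymal GFP+ and 73.6 in epididymal GFP- on average, against 467 and 399 in inguinal GFP+ and GFP-. Its epididymal GFP difference was 3.47 ± 0.10 (adjusted p = 9.95e-14) and its interaction -3.25 ± 0.14 (adjusted p = 3.61e-11), and epididymal GFP- was its lowest group, as for Hoxb2, Hoxb3, Hoxb5, Hoxb6 and Hoxb9. That group was below the silent-gene level, so the epididymal difference was at least 10.6-fold and the size of the interaction rests on background signal. Egr2, known to switch on Hoxa2 and Hoxb2 in the hindbrain, was higher in epididymal GFP+ by 1.92 ± 0.09 (adjusted p = 3.06e-11) and lower in inguinal GFP+ by -0.73 ± 0.09 (adjusted p = 2.59e-05). Cdx1, Cdx2 and Cdx4, which act on Hox genes in the embryo, were at background.

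The genes that flank the clusters were counted as well. Of 16 measured, 2 were higher and 8 lower in epididymal GFP+ than GFP-, against 21.5% and 20.3% of all genes, with a median difference of -0.10 where the Hox median was 0.35. Snx11, 2 genes from the end of the Hoxb cluster, was higher in epididymal GFP+ by 0.82 ± 0.13 (adjusted p = 5.47e-05). Next to the Hoxa cluster, Skap2 was lower in inguinal cells by -0.35 ± 0.03 in GFP+ (adjusted p = 2.25e-07) and -0.35 ± 0.03 in GFP- cells (adjusted p = 1.12e-07). Snx10, 2 genes from an end of that cluster, was higher in inguinal than epididymal GFP+ cells by 0.35 ± 0.04 (adjusted p = 4.06e-06). Of the 16 flanking genes, 5 were higher and 2 lower in inguinal than epididymal GFP+ cells, against 23.6% and 27.2% of all genes. In GFP- cells 4 were higher and 4 lower, against 27.4% and 26.3%. Of 12 other homeobox genes of the same class, 1 was higher and 0 were lower in epididymal GFP+ than GFP-, and 0 were higher and 2 lower in inguinal GFP+. Gbx2, a hindbrain boundary gene, was higher in epididymal GFP+ than GFP- by 1.38 ± 0.07 (adjusted p = 2.04e-10) and lower in inguinal GFP+ than GFP- by -0.96 ± 0.07 (adjusted p = 2.19e-07), and Meox2, a mesoderm gene, was lower in inguinal GFP+ than GFP- by -2.93 ± 0.24 (adjusted p = 4.31e-07), at least 6.62-fold, as its inguinal GFP+ mean was below the silent-gene level.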

How the data were processed

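RNA from 12 samples in 4 groups was hybridised as biotin-labelled cRNA to Affymetrix arrays. As deposited by the authors, each probe set has 1 linear intensity per array, and the signal algorithm, background correction, scaling, software and detection calls are not given in the sources used here. The platform annotation gives 1 symbol for 20380 of 22626 probe sets, several for 691 and none for 1555, and only the first kind named genes (24 symbols had no current match). With array medians within 0.1 on the log2 scale (range 0.096), no further normalization was applied. Values were taken as log2(signal + 16), which understates changes of dim genes, and limma 3.58.1 under R 4.3.3 fitted 4 group means (lmFit, then eBayes with its trend option), with 5 contrasts and Benjamini-Hochberg adjustment over 12393 genes at 0.05. The code was tested on simulated data. A bound ("at least") replaces a group mean below the silent-gene level by that level. Array values with folds and p-values are given for called gene and comparison pairs, most fully for log2 changes of at least 1, and other pairs with a change of at least 0.5 are given as values. Of the context lists, at most 4 called genes per comparison are named. The members and all lists were chosen with earlier results of these data known. Promoter sequences and gene order come from RefSeq. Alternatives covered normalization, pseudocount, probe set choice, dim genes, variance model, samples fitted, the replicate number as a block and each array left out.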

Additional observations from a re-analysis of the deposited data

Results flagged for a closer look

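The GFP difference (GFP+ minus GFP-) was not the same in both depots for 17 Hox genes, by limma's interaction test on log2(signal + 16) with adjusted p under 0.05 over all genes. The values are the inguinal less the epididymal GFP difference on the log2 scale. Hoxb genes had -2.62 (Hoxb9), -2.02 (Hoxb5), -1.83 (Hoxb3), -1.81 (Hoxb2), -1.71 (Hoxb6) and -0.60 (Hoxb4). For Hoxb9, Hoxb5 and Hoxb3 epididymal GFP- was at or below the level of silent genes, so these sizes and their order rest on background signal. Hoxd8 had -1.80. Hoxc genes had -0.98 (Hoxc5), -0.70 (Hoxc9), -0.63 (Hoxc4), -0.61 (Hoxc8) and 0.77 (Hoxc13). Hoxa genes had -0.94 (Hoxa2), -0.57 (Hoxa5), -0.52 (Hoxa7), -0.41 (Hoxa3) and 0.35 (Hoxa9). Other probe sets of the last 2 genes disagreed, with 0.02 for Hoxa3 and a called -0.66 for Hoxa9. With 3 arrays per group, single arrays were not tested as outliers.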

How the results depend on the processing

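Of 1869 values recomputed for Hox gene and comparison pairs under other settings, 1826 kept their direction and side of the threshold, 25 lost the call, 16 gained one and 2 changed sign. With the mean of all probe sets, Hoxa9 was 0.0525 in the epididymal GFP comparison and -0.1568 in the interaction, and the Polycomb gene Cbx2 was -0.2036 (adjusted p = 0.227) between depots in GFP+ cells, where the probe set used gave 0.34. The disagreeing probe sets are part of that setting's construction. The Hox genes called above 0 in the interaction went from 2 to 1 with the mean of all probe sets. The same was true without the variance trend and with a pseudocount of 64. With single arrays left out they ranged from 1 to 2, the lost gene being Hoxa9. The Hox genes called higher in inguinal GFP+ ranged from 0 to 1 with single arrays left out (1 without inguinal GFP+ replicate 3). The cause was not tested. With only the compared groups fitted, Hoxa10 was not called between the epididymal GFP fractions (adjusted p = 0.0511). Hoxa4, Hoxa13, Hoxb1, Hoxb13, Hoxd1 and Hoxd12, each at or near background, passed in 1 comparison or more under single settings. Same-numbered arrays of different groups did not deviate together (correlations -0.057 to 0.044, against -0.046 to 0.06 for different numbers). These values cannot show whether same-numbered samples share an animal, culture or day, which no label gives. With the replicate block, the Hoxb13 interaction (-0.9832, adjusted p = 0.0399) and Hoxb1 between depots in GFP+ cells (-0.6433, adjusted p = 0.0471) gained a call. Dim members are limited by signal over background, and 12 of 31 lie in the lowest 30% of genes by mean.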
